A study of Dendrobium officinale with 6 samples.

Results

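The enzymes that fix carbon into C4 acids and release it again were examined in Dendrobium officinale, an epiphytic medicinal orchid. They were taken from the annotation of the assembled transcripts (unigenes) as the unigenes whose first KEGG ortholog is phosphoenolpyruvate carboxylase (PEPC, K01595), carbonic anhydrase (CA, K01673), NADP-dependent malate dehydrogenase (NADP-MDH, K00051), NADP-dependent malic enzyme (NADP-ME, K00029), ATP-dependent phosphoenolpyruvate carboxykinase (PEPCK, K01610) or pyruvate, phosphate dikinase (PPDK, K01006). This gave 103 of 157901 unigenes: 35 for PEPC, 19 for CA, 17 for PEPCK, 14 for NADP-ME, 10 for NADP-MDH and 8 for PPDK. RNA-Seq had been made from 3 biological replicates of protocorm-like bodies (PLBs) and 3 of leaves. PLBs are small masses of embryo-like tissue formed in culture. They had been induced from seeds and grown in culture for 60 days on 1/2 MS medium with the growth regulators α-NAA, 6-BA and 2,4-D and with potato juice. The leaves came from the original plants, grown in a greenhouse. Organ and growth setting differ together between the tissues, and genotype and age may differ with them, as the PLBs were raised from seeds. Their parts in a difference cannot be told apart. The hour of sampling is not given in the sources used here.

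In crassulacean acid metabolism (CAM), carbonic anhydrase turns CO2 into bicarbonate at night, PEPC joins bicarbonate to phosphoenolpyruvate (PEP) to form oxaloacetate, and malate dehydrogenase reduces this to malate, which is stored in the vacuole. By day malate is decarboxylated by malic enzyme or, after oxidation to oxaloacetate, by PEPCK, and the CO2 released is fixed by Rubisco behind closed stomata. PPDK turns the pyruvate left by malic enzyme back into PEP. The same enzymes also work outside CAM, where PEPC refills the citric acid cycle and PEPCK feeds gluconeogenesis from stored lipid or amino acids, and transcripts of several of them change over the day in CAM plants.

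Expected counts, which are reads estimated per unigene with ambiguous reads divided among contigs, summed to 17697113 to 18219217 per PLB library and 17602153 to 18408442 per leaf library. Unigenes whose best protein match came from an orchid held 92.1% to 92.9% of the counts in PLBs and 91.9% to 92.0% in leaves. Among the marker lists, all 10 tested orthologs of light-harvesting chlorophyll proteins were lower in PLBs, and their summed TPM (a relative transcript level scaled by transcript length and library total) was 1005.6 to 2986 in PLBs against 19749 to 24027 in leaves. Of 11 orthologs of DNA replication, 7 were higher in PLBs (PCNA and the helicase subunits MCM2 to MCM7), histones H2A, H2B and H4 were lower, and H3 was not called. Over all orthologs tested, 37.2% were called higher and 38.6% lower in PLBs. MCM3 turned lower (-1.17) when every listed ortholog of a unigene was used, and H2B was 0.04 on log2(TPM + 1) and not called. The 6 enzymes together held 0.136% to 0.217% of the counts in PLBs and 2.41% to 2.63% in leaves. Fewer cells of a type and less RNA per cell cannot be told apart in such whole-tissue RNA. The part of tissue composition in the results below was not tested.

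The summed counts of 4 of the 6 orthologs were lower in PLBs (PEPC, CA, NADP-MDH and PPDK), and those of NADP-ME and PEPCK were not called. Over all 4103 orthologs tested, 75.8% were called at an adjusted p under 0.05 by edgeR, 37.2% higher and 38.6% lower in PLBs, so a call by itself was common in this comparison. The sizes of the 4 that were called stood further out. All tested orthologs had a median log2 fold change of 0.01, and PEPC ranked 18, NADP-MDH 43, CA 44 and PPDK 276 among them from the most reduced in PLBs. On the same scale NADP-ME ranked 1422 and PEPCK 2933. The plot of summed TPM by library shows the values of all 6 enzymes.

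**Figure D1:**
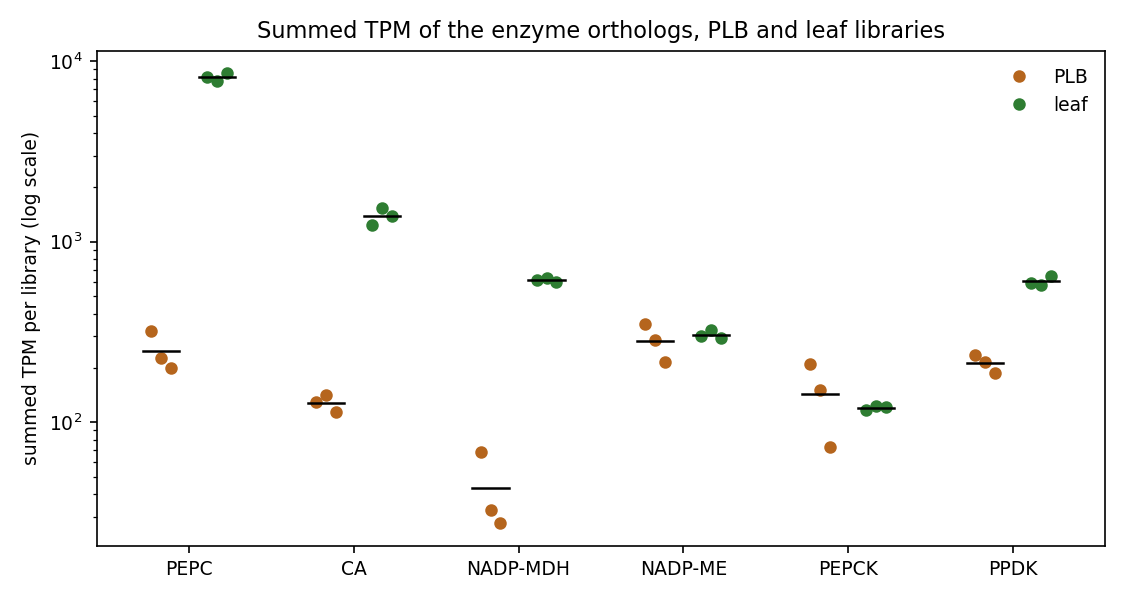
Summed TPM of the unigenes of each ortholog (log axis) in 3 PLB and 3 leaf libraries, with 1 point per library and a line at the mean of the tissue. PEPC, CA, NADP-MDH and PPDK do not overlap between tissues, with means of 248, 128, 42.9 and 212 TPM in PLBs against 8183, 1390, 612 and 605 TPM in leaves, whereas NADP-ME and PEPCK overlap.

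PEPC, the entry enzyme of the pathway, had the largest difference of the 6. Its unigenes summed to 319, 226 and 200 TPM in PLB replicates 1, 2 and 3, against 8165, 7810 and 8573 TPM in leaf replicates 1, 2 and 3. Every PLB library lay far below every leaf library. In counts these were 13783, 10314 and 8962 in PLBs against 394068, 374635 and 399074 in leaves, so that this ortholog alone took 0.0506% to 0.0757% of the counts in PLBs and 2.04% to 2.27% in leaves. By mean TPM it ranked 690 in PLBs and 6 in leaves among all orthologs. The log2 fold change of PLBs over leaves was -5.38 ± 0.18 (SE, adjusted p = 3.01e-07), which is 41.5-fold lower in PLBs.

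Not all unigenes of K01595 were named PEPC. SwissProt named 20 of the 35 as PEPC, and the other 15 as SCAR or SCAR-like proteins, which are known in Arabidopsis as parts of the complex that activates actin branching. None of these 15 had a PEPC domain in the Pfam annotation. Their summed TPM was 111, 100.1 and 116 in PLBs against 36.8, 37.0 and 34.7 in leaves. They made up 41.4%, 51.3% and 64.4% of the K01595 counts in the PLB libraries and 0.482% to 0.567% in the leaf libraries. The 20 PEPC-named unigenes alone, a set taken once the values were known, summed to 208, 126 and 83.8 TPM in PLBs against 8128, 7773 and 8539 TPM in leaves. The log2 fold change was then -6.39 ± 0.35 (adjusted p = 2.25e-06), or 84.1-fold lower in PLBs, and it ran between -6.78 and -6.13 when each library was left out in turn.

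The PEPC transcripts came mostly from a leaf-abundant group of contigs, cluster CL5100, and from a single contig outside it that hardly differed. In that cluster 12 of 14 tested contigs were lower in PLBs, where 22.9% of all unigenes were. The other 2 were not called, with log2 fold changes of 0.40 and -2.47, the second at an adjusted p of 0.0024 by edgeR. To join the contigs of 1 gene, unigenes were summed by the locus number of their best nucleotide match, or by assembly cluster where the match had none. The contigs of cluster CL5100 without a locus number summed to 60.7, 35.3 and 25.7 TPM in PLBs against 4939, 4613 and 4948 TPM in leaves, a log2 fold change of -7.48 ± 0.46 (adjusted p = 5e-06). Those of LOC110094765 had 76.4, 24.1 and 22.5 TPM in PLBs against 3119, 3092 and 3532 TPM in leaves (-6.87 ± 0.59, adjusted p = 2.6e-05). The assembly placed its 6 contigs of K01595 in the same cluster except for 1. These 6 made up 97.4% of the counts of the locus, and the rest came from outside K01595. Reads can move between contigs of a cluster, so the split between both sums is uncertain, while the whole cluster gave -7.13 ± 0.47 and was called, as were 40.3% of all clusters tested. PLB replicate 1 was the highest PLB library in both.

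LOC110092220, a single contig of 3415 bases also named PEPC 2 in SwissProt, behaved otherwise. It had 65.9, 63.0 and 32.3 TPM in PLBs against 42.7, 42.0 and 39.7 TPM in leaves. The tissues overlapped, since PLB replicate 3 lay below every leaf library and the other PLB libraries above them. Its log2 fold change was -0.13 ± 0.26 (adjusted p = 0.663). It held 16.2% to 27.9% of the K01595 TPM in PLBs and 0.463% to 0.538% in leaves. The remaining loci of K01595 with at least 5% of its TPM were SCAR loci or mixed. LOC110098265 had 46.3 to 49.2 TPM in PLBs against 19.0 to 20.4 TPM in leaves, and LOC110112925 28.8 to 35.0 TPM against 11.2 to 11.9 TPM. Their log2 fold changes of 0.79 ± 0.09 and 0.97 ± 0.09 stayed under the minimum size of 1 for a locus, which both passed with library size as the only scaling (1.10 and 1.29) and the second also without PLB replicate 1 (1.003). LOC110113993 joined contigs of both names and was lower in PLBs (-1.02 ± 0.12, adjusted p = 0.000119), but not with library size only (-0.70), without leaf replicate 1 (-0.99) or without PLB replicate 2 (-0.98). Its 2 SCAR contigs in cluster CL3060 were higher in PLBs (3.01 ± 0.16) and its PEPC contigs belong to CL5100.

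**Figure D2:**
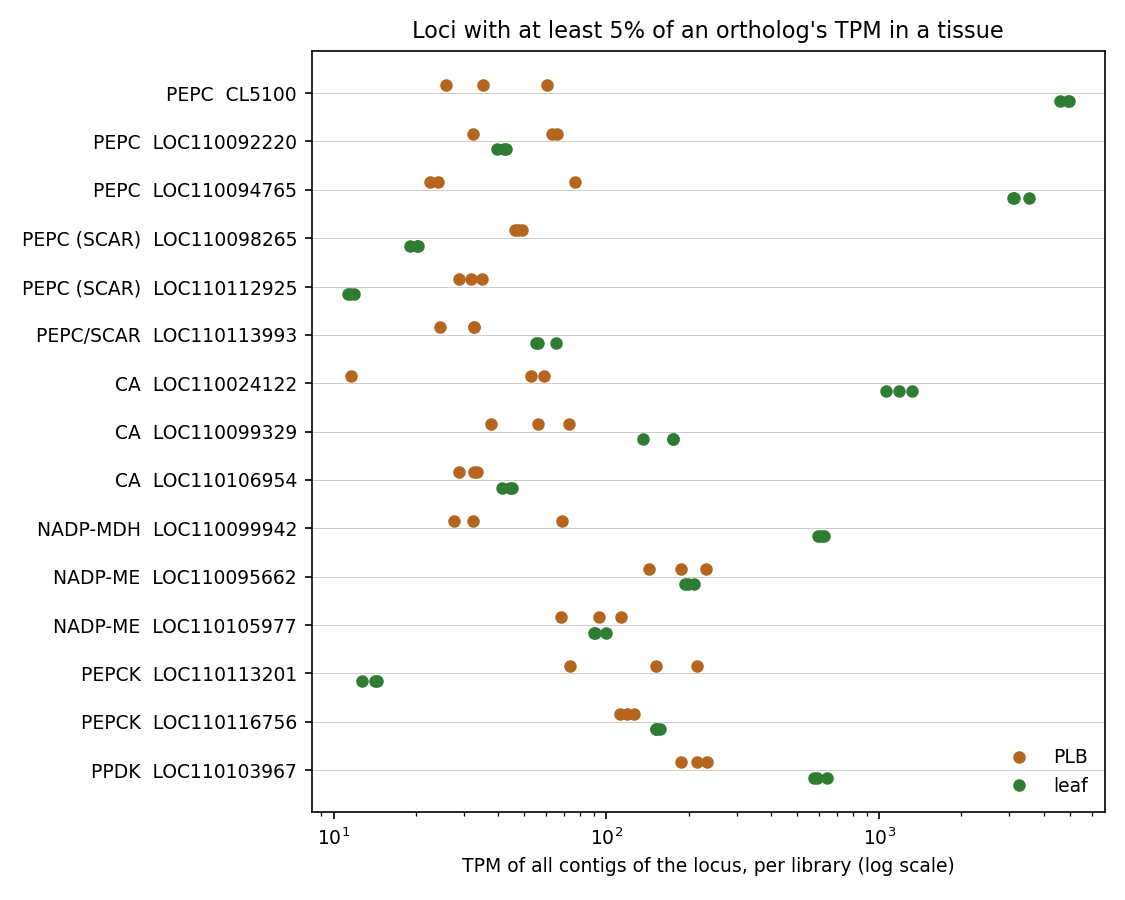
TPM of all contigs of each locus (log axis), 1 point per library, PLB above leaf, for the 15 loci with at least 5% of the summed TPM of their ortholog in either tissue. The leaf points of CL5100, LOC110094765, LOC110024122, LOC110099942 and LOC110103967 stand to the right of all PLB points. So do, by smaller margins, those of LOC110099329, LOC110106954, LOC110113993 and LOC110116756. The leaf points of LOC110113201 and of the SCAR loci LOC110098265 and LOC110112925 stand to the left, and the points of LOC110092220, LOC110095662 and LOC110105977 overlap.

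Carbonic anhydrase, which supplies bicarbonate to PEPC in CAM, was the next enzyme in level in leaves. Its 19 unigenes were all named chloroplastic carbonic anhydrases in SwissProt, and whether these forms supply PEPC was not tested. They summed to 130, 142 and 113 TPM in PLBs against 1238, 1538 and 1393 TPM in leaves. No PLB library came near a leaf library. This gave a log2 fold change of -4.21 ± 0.13 (adjusted p = 2.95e-07), or 18.5-fold lower in PLBs. The members did not fall equally. LOC110024122, which carried 84.5% to 85.7% of the leaf TPM of the enzyme, had 59.3, 52.8 and 11.6 TPM in PLBs against 1059, 1318 and 1177 TPM in leaves (-5.80 ± 0.61, adjusted p = 6.8e-05). PLB replicate 3 was lowest there. LOC110099329 had 37.8, 55.9 and 72.7 TPM in PLBs against 137, 176 and 176 TPM in leaves (-2.60 ± 0.24, adjusted p = 4.1e-05), with PLB replicate 3 the highest of the PLBs. It was therefore the leading locus of the enzyme in PLB replicate 3, with 63.7% of the TPM, while LOC110024122 led in PLB replicate 1 with 45.8%. LOC110106954, named beta carbonic anhydrase 5 in SwissProt, had 32.6, 33.6 and 28.7 TPM in PLBs against 44.2, 45.0 and 41.4 TPM in leaves. Its log2 fold change of -0.998 ± 0.13 fell just under the minimum size for a call, and it passed without PLB replicate 2 (-1.15) and without a filter on low counts (-1.03).

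NADP-MDH, the chloroplast enzyme that reduces oxaloacetate to malate in the light, was assembled as 10 contigs of 1 locus, LOC110099942. The contigs summed to 68.7, 32.5 and 27.6 TPM in PLBs against 612, 627 and 597 TPM in leaves. The tissues were apart by a wide margin, and PLB replicate 1 was again the highest PLB library. PLBs over leaves gave a log2 fold change of -4.21 ± 0.32 (adjusted p = 1.15e-05), or 18.5-fold lower in PLBs. CL3564.Contig1_All carried most of the leaf counts, with 461, 268 and 182 counts in PLBs against 9218, 9427 and 9155 counts in leaves (-5.24 ± 0.34). In PLBs the counts were spread over more contigs, of which CL3564.Contig8_All had 655 counts over all PLB libraries against 2865 over all leaf libraries.

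NADP-ME, which decarboxylates malate, was at a similar level in both tissues. Its unigenes summed to 350, 285 and 214 TPM in PLBs against 300, 324 and 294 TPM in leaves. PLB replicate 1 lay above every leaf library and the other PLB libraries below them. The log2 fold change was -0.37 ± 0.16 (adjusted p = 0.0590). This side of the threshold was not firm, as DESeq2 gave -0.36 (adjusted p = 0.0351), the scaling factors of the unigene table -0.44 (adjusted p = 0.03003) and the fit without PLB replicate 1 -0.55 (adjusted p = 0.00473). LOC110095662 had 232, 187 and 143 TPM in PLBs against 200, 210 and 194 TPM in leaves, and LOC110105977 had 113, 93.9 and 68.2 TPM against 89.7, 99.9 and 90.6 TPM. Neither was called. They carried 63.5% ± 1.1 and 32.4% ± 0.55 of the NADP-ME TPM in PLBs and 65.7% ± 0.97 and 30.5% ± 0.54 in leaves (SD, n = 3 each). Within LOC110095662 the counts sat on different contigs. Unigene4980_All had 2215, 993 and 1446 counts in PLBs against 119, 113 and 118 counts in leaves (3.42 ± 0.28, adjusted p = 4.4e-05), and Unigene12813_All had 1595.5, 1108 and 779 counts in PLBs against 4022, 4300 and 3597 counts in leaves (-2.08 ± 0.25, adjusted p = 0.000217). The second of these lost its call without any 1 of the leaf libraries or without PLB replicate 2, with an adjusted p between 0.00129 and 0.00171. One unigene of K00029, Unigene43100_All, was named MICRORCHIDIA 2 in SwissProt, and it had 371 counts in leaves and none in PLBs.

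PEPCK joins a locus that was higher in PLBs with a contig found in leaves. The 17 unigenes of K01610 summed to 209, 150 and 72.4 TPM in PLBs against 117, 123 and 121 TPM in leaves. PLB replicates 1 and 2 lay above the leaf libraries and PLB replicate 3 below them. A log2 fold change of 0.48 ± 0.31 was not called (adjusted p = 0.184), and without PLB replicate 3 it was 0.80 (adjusted p = 0.00122). The 16 contigs of cluster CL142, all named PEPCK in SwissProt and all from LOC110113201, had 209, 150 and 72.4 TPM in PLBs against 14.4, 13.99 and 12.7 TPM in leaves. Every PLB library was above every leaf library. Summed alone, again a set taken once the values were known, these 16 had a log2 fold change of 2.99 ± 0.34 (adjusted p = 8.8e-05), or 7.97-fold higher in PLBs, and it ran between 2.65 and 3.31 when each library was left out in turn. The locus, with its 1 further contig outside K01610 included, was called higher (2.93 ± 0.34, adjusted p = 0.000123). It lost that call at the stricter limit of 0.001 without leaf replicate 2 (adjusted p = 0.00127) or leaf replicate 3 (adjusted p = 0.00164).

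The other contig, Unigene83328_All of LOC110116756, has a PEPCK domain in Pfam and no SwissProt match. It had 1980, 2107 and 2031 counts in leaves and 0 in every PLB library, which is at least 2030-fold lower in PLBs against a floor of 3 counts over the tissue. That locus was not silent in PLBs. It has 3 further contigs with no KEGG ortholog and hence outside the 103 unigenes, and together these had 2365, 2354 and 2038 counts in PLBs against 1039, 915 and 968 counts in leaves. With all 4 contigs the locus had 126, 119 and 112 TPM in PLBs against 152, 152 and 156 TPM in leaves, and its log2 fold change of -0.73 ± 0.11 stayed under the minimum size of 1. The K01610 sum thus left out 6757 counts of this locus in PLBs against 2922 in leaves. The overlap and missing call of that sum therefore do not describe both loci in full, whose total was not tested. The plot of fold changes by choice of unigenes sets both ways of summing side by side.

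**Figure D3:**
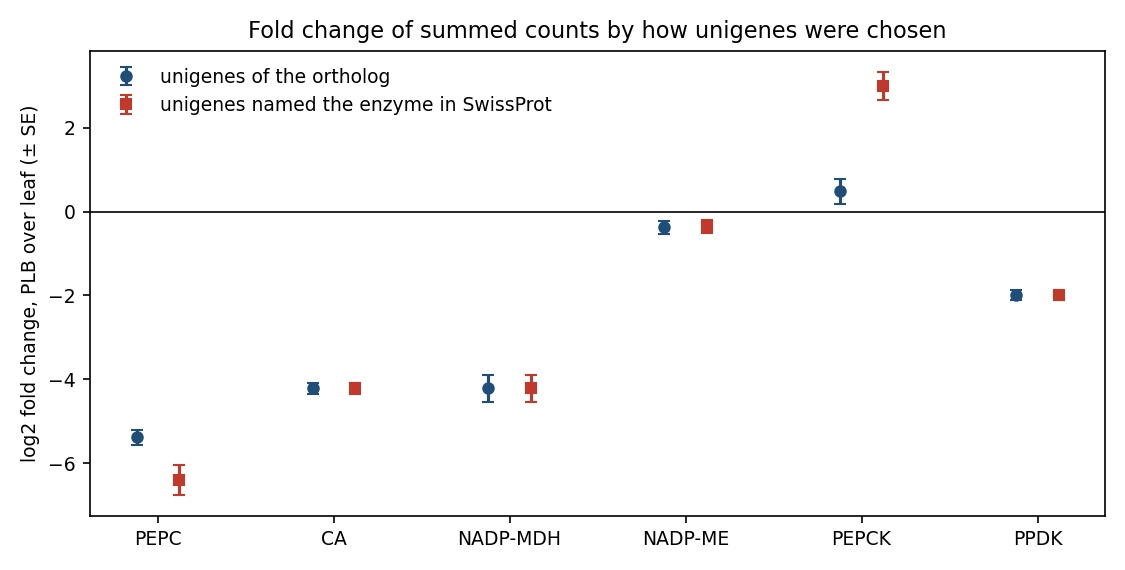
Log2 fold change of summed counts, PLB over leaf, with its standard error, for all unigenes of each ortholog (circles) and for those that SwissProt names as the enzyme (squares). PEPC moves to -6.39 and PEPCK to 2.99 with the named unigenes, and CA, NADP-MDH, PPDK and NADP-ME stay at -4.21, -4.21, -1.99 and -0.35. The PEPCK square leaves out Unigene83328_All, which has a PEPCK domain in Pfam.

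PPDK, which regenerates PEP from pyruvate, was made of 8 contigs of 1 locus, LOC110103967. They summed to 234, 214 and 187 TPM in PLBs against 594, 578 and 645 TPM in leaves. The tissues did not overlap. This was a log2 fold change of -1.99 ± 0.12 (adjusted p = 2.74e-06), or 3.98-fold lower in PLBs. Of its 7 tested contigs, 6 were lower and 1 higher. Unigene29264_All, the largest by counts, had 4773, 3851 and 2906 counts in PLBs against 7906, 8369 and 8386 counts in leaves (-1.41 ± 0.19, adjusted p = 0.000371). It lost this call without any 1 of the leaf libraries, without PLB replicate 2, with library size as the only scaling (adjusted p = 0.00111) and on log2(FPKM + 0.1) with limma (adjusted p = 0.001005), but kept it on log2(FPKM + 1) (adjusted p = 0.000632). Unigene8592_All had 468, 367 and 413 counts in PLBs and 0 in every leaf library, at least 418-fold higher in PLBs against the same floor, although the locus as a whole was lower.

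Contigs of 1 locus thus often moved apart. Of the 103 unigenes, 82 passed the filter on low counts, and 51 of these were called, which needed both an adjusted p no higher than 0.001 and a change of 1 or more on the log2 scale. This was 62.2% of the members tested, against 39.7% of all 70383 unigenes tested. Contigs of 1 cluster share reads and are not independent, and 12 of the unigenes called lower were of cluster CL5100 alone. Of the members, 13 were higher in PLBs and 38 lower, where the whole table had 16.8% higher and 22.9% lower. Their median log2 fold change was -2.19 and that of all tested unigenes was 0.00. The number lower fell to between 22 and 35 when 1 library was left out, lowest without leaf replicate 3, and was 25 and 24 without leaf replicates 1 and 2. By enzyme, 16 of 29 tested PEPC unigenes were lower and 5 higher, and all 5 of those higher were SCAR-named, led in counts by CL2821.Contig2_All (2.28 ± 0.19). For PEPCK 4 were higher and 3 lower of 13, led by CL142.Contig7_All (5.92 ± 0.50) on the higher side. For NADP-ME 3 were higher and 5 lower of 13. For CA none was higher and 5 were lower of 14, led by CL11764.Contig6_All (-8.95 ± 1.02), whose call was lost without any 1 of the leaf libraries or PLB replicate 2 (adjusted p of 0.00102 to 0.00142), and for NADP-MDH none was higher and 3 were lower of 6. At the level of loci, 18 of the 22 were tested, of which 1 was called higher and 7 lower, against 36.9% of all 24411 loci called. The median log2 fold change was -0.62 over these loci, against 0.01 over all tested loci.

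**Figure D4:**
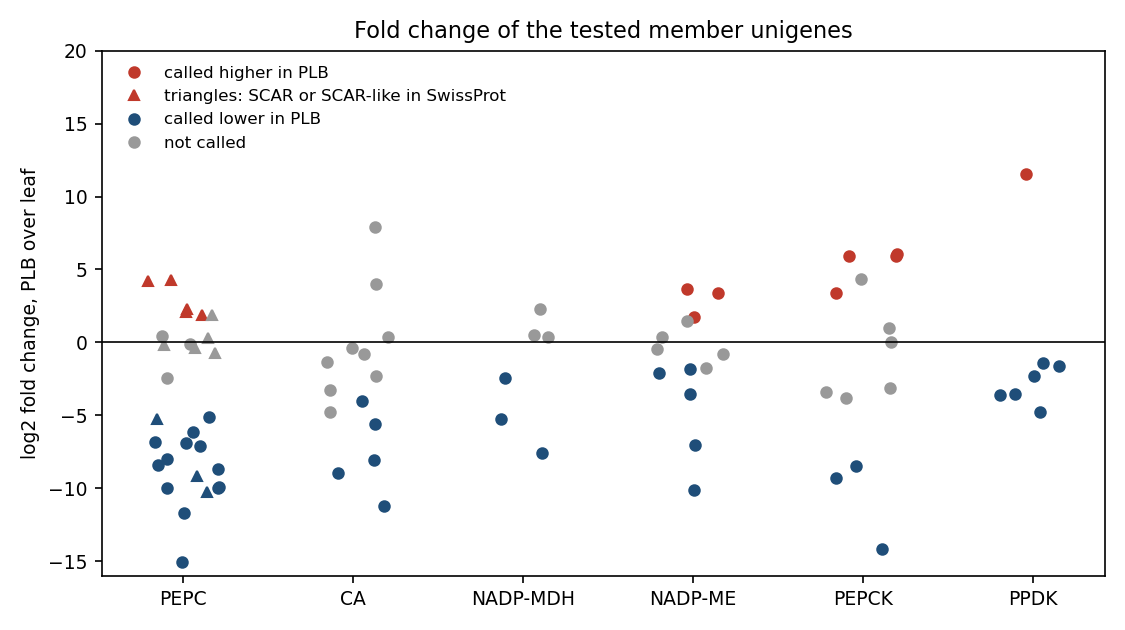
Log2 fold change, PLB over leaf, of each of the 82 tested member unigenes, by enzyme, with called unigenes in colour, others in grey and SCAR-named unigenes of K01595 as triangles. The 13 called higher belong to PEPC (5, all triangles), PEPCK (4), NADP-ME (3) and PPDK (1).

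Ratios between the enzymes within a library need no scaling between libraries. PPDK over PEPC was 0.734, 0.948 and 0.937 in PLBs against 0.0727, 0.0739 and 0.0753 in leaves, a difference of 3.55 on the log2 scale. PPDK over NADP-ME was 0.669, 0.751 and 0.873 in PLBs against 1.98, 1.78 and 2.196 in leaves, a difference of -1.38. PEPCK over NADP-ME was 0.597, 0.526 and 0.338 in PLBs against 0.389, 0.379 and 0.413 in leaves, a difference of 0.27. On TPM the tissues did not overlap in the first 2 of these 3 ratios and overlapped in the third. The exact two-sided permutation test gave p = 0.1 for these 2, which is the smallest that 3 against 3 libraries allow, and p = 0.4 for the third (0.15, 0.15 and 0.4 adjusted over the 3 ratios). On summed counts PEPCK over NADP-ME did not overlap either, with 0.565, 0.519 and 0.325 in PLBs against 0.267, 0.261 and 0.282 in leaves (difference 0.76, p = 0.1 by the same exact test). With SwissProt-named unigenes alone PEPCK over NADP-ME was 0.597, 0.526 and 0.338 in PLBs against 0.0485, 0.0434 and 0.0438 in leaves (difference 3.39). That choice leaves out Unigene83328_All, which has a PEPCK domain in Pfam and no counts in PLBs. It held 81.1% to 83.7% of the PEPCK counts in the leaf libraries, so the larger ratio follows from its removal. PPDK over PEPC, whose PEPC sum then holds no SCAR unigenes, was 1.13, 1.70 and 2.23 in PLBs against 0.0730, 0.0743 and 0.0756 in leaves (difference 4.45).

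The enzymes next to these on the pathway were all lower in PLBs, 7 of 7 orthologs where 38.6% of all orthologs were lower, with a median log2 fold change of -1.005 against 0.01 over all orthologs. Cytosolic malate dehydrogenase (MDH1, K00025), which makes malate from oxaloacetate at night, had 363, 299 and 240 TPM in PLBs against 1268, 1275 and 1274 TPM in leaves (-2.41 ± 0.14, adjusted p = 2.51e-06). Mitochondrial malate dehydrogenase (MDH2) and enolase, which makes PEP, fell by 2.40 and 2.17 on the log2 scale. The 2 malate dehydrogenases had nearly the same change on scaled counts, and on log2(TPM + 1) it was -2.10 for MDH1 and -2.27 for MDH2. NAD-dependent malic enzyme, the mitochondrial decarboxylase, had 226 ± 40.7 TPM in PLBs against 342 ± 5.57 TPM in leaves (SD, n = 3 each), a log2 fold change of -1.005 ± 0.12. Citrate synthase changed least, with 127, 112 and 110 TPM in PLBs against 121, 119 and 122 TPM in leaves. Its log2 fold change was -0.51 ± 0.07 on scaled counts, and on log2(TPM + 1) it was -0.05 and not called (adjusted p = 0.539).

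The aminotransferases, which move amino groups between C4 acids, alanine and glutamate, moved in both directions. Chloroplast aspartate aminotransferase (ASP5, K00811) had 12.9, 10.8 and 10.2 TPM in PLBs against 97.8, 99.8 and 92.3 TPM in leaves (-3.82 ± 0.12, adjusted p = 2.95e-07). Glutamate-glyoxylate aminotransferase of photorespiration had 62.9, 48.3 and 50.7 TPM in PLBs against 598, 603 and 645 TPM in leaves. Mitochondrial aspartate aminotransferase was higher in PLBs (0.52 ± 0.12), with 20.2, 23.4 and 24.4 TPM against 11.1, 9.72 and 11.6 TPM in leaves. Alanine aminotransferase was called higher by a small margin (0.31 ± 0.11, adjusted p = 0.0355), but gave -0.37 when only unigenes with an orchid match were summed, and its call was lost without any 1 of the leaf libraries (adjusted p of 0.0510 to 0.123), PLB replicate 1 or PLB replicate 2. The cytosolic aspartate form changed least (-0.24 ± 0.07), and its sign was not stable, being 0.01 with library size as the only scaling and 0.20 on log2(TPM + 1), where it was called higher (adjusted p = 0.0293). Of the 5, 2 were thus called higher and 3 lower, where 37.2% of all orthologs were called higher and 38.6% lower.

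The vacuolar H+-ATPase acidifies the vacuole and so drives the storage of malate. All 13 of its subunit orthologs were lower in PLBs on scaled counts, where 38.6% of all orthologs were, with a median log2 fold change of -1.45 against 0.01 over all orthologs. Subunit e changed most, with 118, 128 and 111 TPM in PLBs against 461, 442 and 470 TPM in leaves (-2.15 ± 0.07, adjusted p = 3.08e-07). The catalytic subunit A changed least (-0.41 ± 0.11), with 1141, 957 and 860 TPM in PLBs against 981, 932 and 978 TPM in leaves, and on log2(TPM + 1) it was 0.02 and not called, as was subunit H (-0.22). With library size as the only scaling, which raised the median of all orthologs to 0.26, 12 of the 13 were called lower. The plot of the neighbouring enzymes shows each ortholog of these 3 lists.

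**Figure D5:**
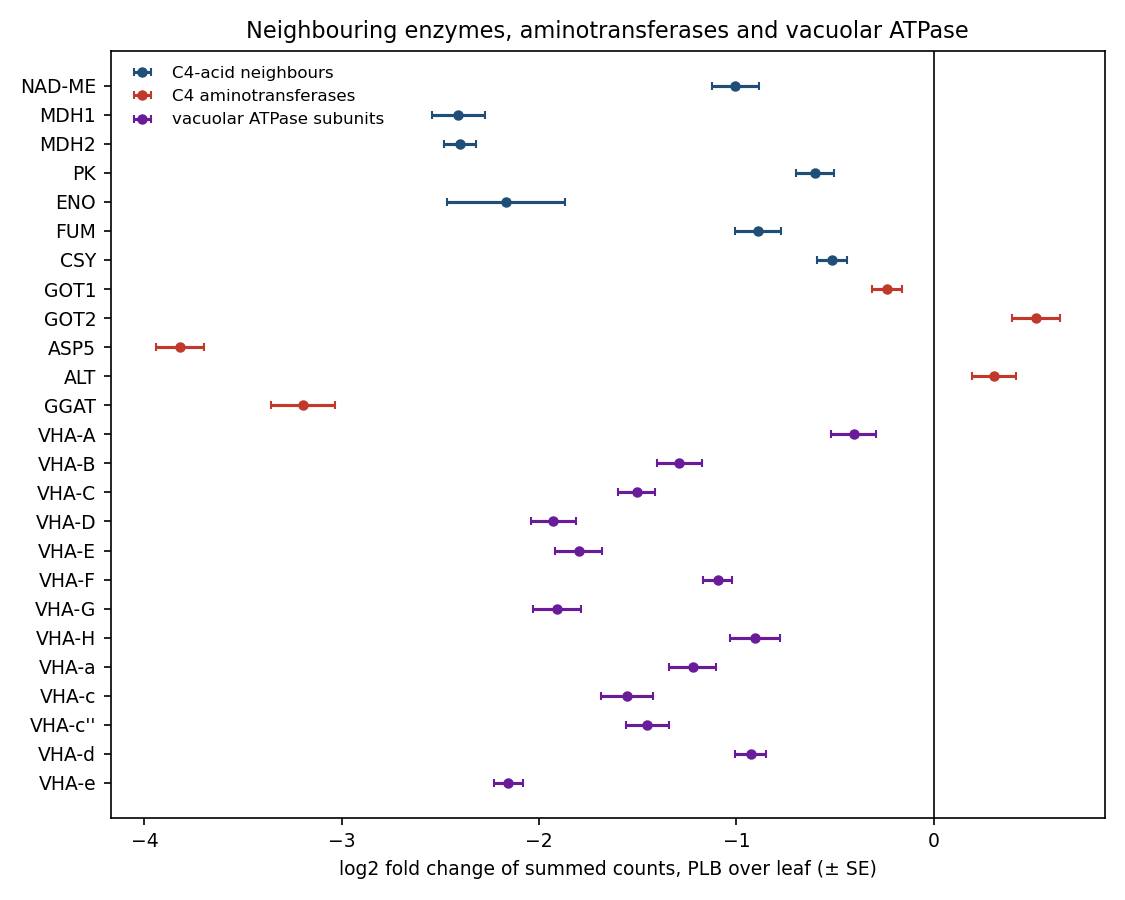
Log2 fold change of summed counts, PLB over leaf, with its standard error, for the 7 neighbouring enzymes, 5 aminotransferases and 13 subunits of the vacuolar ATPase. All neighbouring enzymes and ATPase subunits lie below 0 on scaled counts, VHA-A nearest to it (-0.41, but 0.02 on TPM), and GOT2 (0.52) and ALT (0.31, but -0.37 with orchid matches only) lie above it.

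Further partners of the pathway were found by name rather than by ortholog, and their leading locus by counts was tested. Beside the counts of their unigenes stand the shares over all unigenes, of which 16.8% were called higher and 22.9% lower. The vacuolar proton-pumping pyrophosphatase, the second vacuolar proton pump, had 12 of 16 tested unigenes lower and 1 higher. Its leading locus LOC110100315 had 230, 107 and 117 TPM in PLBs against 975, 957 and 955 TPM in leaves (-3.11 ± 0.29, adjusted p = 4.2e-05). The plastid dicarboxylate transporter, which exchanges malate across the chloroplast envelope, fell at LOC110110385 to 17.4, 15.6 and 8.87 TPM in PLBs, against 138, 173 and 129 TPM in leaves (-3.88 ± 0.28). PEPC kinase, which phosphorylates PEPC at night and relieves its inhibition by malate, was higher in PLBs at its leading locus LOC110102991, with 55.4, 33.8 and 40.4 TPM against 13.7, 13.1 and 14.7 TPM in leaves (1.12 ± 0.17, adjusted p = 0.000503), although of its 3 tested unigenes 1 was lower and none was higher. All 6 unigenes of that name summed to 1633 counts in PLBs against 1206 counts in leaves, a smaller difference. The PPDK regulatory protein, which switches PPDK on and off by phosphorylation, was lower at LOC110106594 (-1.27 ± 0.14, adjusted p = 9.9e-05). An aluminum-activated malate transporter, a family of anion channels, was higher at LOC110112365, with 36.2, 39.3 and 30.8 TPM in PLBs against 10.1, 10.3 and 9.62 TPM in leaves (1.29 ± 0.15). Over all 23 tested unigenes of that family 4 were higher and 5 lower. The tonoplast dicarboxylate transporter, which carries malate into the vacuole in Arabidopsis, had 180, 77.3 and 62.2 TPM in PLBs against 125, 119 and 123 TPM in leaves at LOC110091922 and was not called, and neither were the leading loci of the PEP/phosphate translocator and of alpha carbonic anhydrase, although 2 of 3 and 3 of 5 of their tested unigenes were lower. The gamma carbonic anhydrases, parts of mitochondrial complex I, were lower at LOC110094091 (-1.47 ± 0.13).

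For each enzyme the other ortholog with the most similar profile was sought, as the smallest root mean square difference of centred log2 CPM over the 6 libraries among 4102 orthologs. Since the libraries form 2 tissues, such likeness mostly restates a similar fold change. The nearest to PEPC was K15889, a prenylcysteine methylesterase (difference 0.15, log2 fold change -5.27), and to CA K03935, an NADH dehydrogenase subunit (0.06, -4.25). To NADP-MDH it was K13680, a beta-mannan synthase (0.20, -4.40), to PPDK K01695, the alpha chain of tryptophan synthase (0.05, -2.02), to NADP-ME K18577, an endo-beta-mannosidase (0.06, -0.39), and to PEPCK K10403, a kinesin (0.17, 0.37). Within a difference of 0.25 lay 614 orthologs for NADP-ME and 159 for PPDK, so these nearest ones are hardly particular. For CA there were 14, for PEPCK 9, and for PEPC and NADP-MDH 2 each.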

How the data were processed

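Total RNA of 3 PLB and 3 leaf samples was sequenced by the authors on the BGISEQ-500 platform and assembled into unigenes with Trinity and Tgicl. The authors' files give expected counts, that is estimated read numbers of each unigene, with TPM and FPKM, all as deposited. The submitters' processing notes name Bowtie2 2.2.5, RSEM 1.2.8 and DESeq2. The annotation table also holds the authors' log2 fold changes, p values and q values of PLB against leaf, which were not used. Reads were not processed again. Every column used belonged to a sample of the series.

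Expected counts were summed per first KEGG ortholog, or per locus, rounded, filtered with filterByExpr, scaled by TMM (1.08 to 1.09 in PLBs, 0.914 to 0.924 in leaves) and tested with the quasi-likelihood F test of edgeR 4.0.16 in R 4.3.3, with Benjamini-Hochberg adjustment over the whole table. Standard errors were taken from the fold change and its F value. Calls needed an adjusted p under 0.05 for orthologs, and for unigenes, loci and clusters no more than 0.001 together with a change of 1 or more on the log2 scale, after the study. Steps were tested on simulated data with far fewer changed features than were called here and less spread than the unigenes and loci had. The scaling and calls were thus not checked under a change this broad. Alternatives used DESeq2 1.42.0 and limma 3.58.1 with pseudocounts of 0.1 and 1, RLE or library size scaling, other membership rules, other filters (mean FPKM of 1), clusters, and each library left out. Floors of 3 counts cover counting error only. Named are all 6 orthologs, loci with at least 5% of the TPM of an ortholog in a tissue, the called unigene with most counts each way, and the most and least changed ortholog of each list; CL3564.Contig8_All, Unigene43100_All, MDH2, enolase, NAD-ME and the further aminotransferases fall outside this rule and were named after their values were seen. Sums of SwissProt-named unigenes were added after seeing the data. Members and lists were chosen with earlier results of these data known. Without a genome, positions were not analysed here.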

Additional observations from a re-analysis of the deposited data

How the results depend on the processing

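PEPC, CA, NADP-MDH and PPDK stayed lower in PLBs and called under all 18 alternatives, between -6.39 and -5.07, -4.29 and -3.43, -4.68 and -3.92, and -2.07 and -1.52 on the log2 scale. NADP-ME ran between -0.55 and -0.13 (0.0590 in the reported test) and was called with DESeq2 (-0.36), the unigene scaling factors (-0.44) and without PLB replicate 1. PEPCK ran between 0.13 and 2.99 and was called with SwissProt-named unigenes (2.99, chosen after seeing the data) and without PLB replicate 3 (0.80), which are the settings with 1 ortholog of the 6 called higher in place of 0. When each library was left out, NADP-ME ran between -0.55 and -0.22 and PEPCK between 0.14 and 0.80, the number of orthologs called higher between 0 and 1, unigenes called lower between 22 and 35 and loci called higher between 0 and 2. Loci called higher were 3 with library size only. With assembly clusters in place of loci, 5 were called higher and 17 lower, since contigs of 1 locus that the assembly kept apart were then tested singly. On summed counts PEPCK over NADP-ME differed by 0.76 and PPDK over NADP-ME by -1.60, and with SwissProt-named unigenes PEPCK over NADP-ME differed by 3.39 and PPDK over PEPC by 4.45. The SwissProt-named PEPCK sum leaves out Unigene83328_All, which has a PEPCK domain in Pfam. By counts LOC110024122 held 84.6% of CA and LOC110113201 17.5% of PEPCK in leaves, and LOC110095662 held 66.4% of NADP-ME in PLBs. The cause of the other changes was not tested. No paired analysis was possible because the labels give the libraries no replicate numbers, and those used here only name the libraries in their order of listing.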

Other observations

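Contigs with the name of an enzyme also stood outside its ortholog and were not in the 103 unigenes. Unigene4001_All, named PEPC 3 in SwissProt but listed under K12349, had 23.0 counts over the PLB libraries against 12115 over the leaf libraries, and Unigene9658_All, named PEPC but listed under K05539, had 55.0 counts against 647. Unigene82674_All, named NADP-ME and listed under K20557, had 371 counts in PLBs against 83.9 in leaves. These were not in the sums by ortholog. Sums by locus took in every contig with the same locus number, so a contig named here can be part of one. For LOC110094765, contigs of K01595 made up 97.4% of the counts of the locus.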
